A study of Caenorhabditis elegans with 2 samples.

Results

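The genes of the 26S proteasome were examined for peaks of the tagged homeodomain protein CEH-91 in whole young adult Caenorhabditis elegans. Members were all genes named pas, pbs, rpt or rpn followed by a number in the Ensembl release 115 models of WBcel235, which gave 33 of 19973 nuclear protein-coding genes. Of these, 14 encode the core particle (pas, pbs) and 19 the regulatory particle (rpt, rpn). Strain RW12305 has TY1, EGFP and 3xFLAG inserted by CRISPR into ceh-91 at its own locus, and chromatin was recovered with an antibody against GFP. The worms were 62.5 hours old, synchronised by L1 starvation after bleaching, and their chromatin was sonicated. Both samples are biological replicates of 1 group, numbered 1 and 2, and both were set against the same control alignment. Nothing in the labels says that the worms of each were grown separately, there is no untagged or mutant group, and chromatin of all tissues is mixed, so no cell type is tied to any peak.

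The proteasome degrades proteins that carry ubiquitin chains. Its core particle stacks rings of alpha subunits, which gate the entry, on rings of beta subunits, which cut the chain inside. The regulatory particle sits on the core, where a ring of ATPases unfolds and feeds the substrate, scaffold and receptor subunits capture ubiquitin, and a lid removes it. In C. elegans the transcription factor SKN-1A raises proteasome gene expression when the proteasome is impaired.

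Each sample, and each of 2 comparisons over both, has a ranked list of peaks and a thresholded list. The conservative comparison took the replicates as its inputs and the other is read here as that of pooled pseudoreplicates. A peak's global discovery rate estimates how poorly it repeats between the inputs, and thresholded lists hold peaks with a rate of at most 0.01. Peaks in a thresholded list are called listed here. Some ranked peaks at or under that rate are not in the thresholded list, 88 of 1700 in the conservative comparison, and these do not count as listed. The conservative list held 1612 listed peaks of 53026 ranked, the pooled list 1716 of 50055, replicate 1 had 1180 of 35497 and replicate 2 had 974 of 37659. A gene is called bound where a listed summit lay between 1000 bp upstream and 200 bp downstream of an annotated transcript start. The signal of a peak is the authors' own value, is scaled to each library or pool, and was used within a list or for the same peak side by side. The lists hold no read counts, so depth is unknown and the exact (Clopper-Pearson) 95% intervals below cover counting error over genes only. With 1 group and 2 samples, the counts are set beside those of all protein-coding genes and no test was made.

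The 6 strongest listed summits among bound genes of chromosomes II to V are shown with 50 bp on either side, read on the strand of the gene from RefSeq's WBcel235 genome. They are shown for a short run that recurs in 4 of them. Capitals mark every match to GTCAT or ATTGTC on either strand. The windows lie at II:11239103-11239203 (rpn-9, minus strand), II:4044512-4044612 (rpn-11, minus), III:6961297-6961397 (rpn-6.1, minus), V:5584533-5584633 (pas-6, minus), III:8447131-8447231 (rpn-3, plus) and III:9001643-9001743 (rpn-6.2, minus).
rpn-9: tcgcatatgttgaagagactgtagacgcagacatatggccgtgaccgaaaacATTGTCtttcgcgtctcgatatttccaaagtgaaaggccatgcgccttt
rpn-11: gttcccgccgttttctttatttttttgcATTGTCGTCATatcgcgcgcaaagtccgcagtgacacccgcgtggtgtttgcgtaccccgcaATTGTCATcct
rpn-6.1: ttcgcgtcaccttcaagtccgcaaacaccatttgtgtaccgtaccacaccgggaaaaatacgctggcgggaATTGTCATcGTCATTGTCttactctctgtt
pas-6: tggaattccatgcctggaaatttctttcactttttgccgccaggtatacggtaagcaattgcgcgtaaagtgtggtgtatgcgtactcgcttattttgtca
rpn-3: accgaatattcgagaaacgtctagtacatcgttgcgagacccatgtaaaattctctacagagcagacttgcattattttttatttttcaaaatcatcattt
rpn-6.2: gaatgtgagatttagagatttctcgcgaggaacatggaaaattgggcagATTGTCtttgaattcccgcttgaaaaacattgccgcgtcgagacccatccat

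In the conservative list 12 of 33 proteasome genes were bound (36.4%, interval 20.4 to 54.9), while over all protein-coding genes the share was 7.37% (1473 of 19973). Counts over protein-coding genes include the members. Many genes have no ranked peak at all near their start, and among genes that have one the share was 37.5% of 32 proteasome genes, against 14.2% of 10400 protein-coding genes. None of the members lies on chromosome X, and over autosomal protein-coding genes the share was 8.49%. The core had 4 of 14 bound (28.6%, interval 8.39 to 58.1) and the regulatory particle 8 of 19 (42.1%, 20.3 to 66.5), so the intervals of the particles overlap widely. In the pooled list the core had 5 of 14 (35.7%) and the regulatory particle 7 of 19 (36.8%), in replicate 1 they had 4 (28.6%) and 6 (31.6%), and in replicate 2 they had 3 (21.4%) and 6 (31.6%). By ring and layer in the conservative list, the alpha ring had 3 of 7, the beta ring 1 of 7 and the ATPase ring 0 of 6. The scaffold and receptor subunits had 2 of 4 and the lid 6 of 9 (interval 29.9 to 92.5). All 8 bound genes of the regulatory particle there were therefore among the 13 rpn genes (61.5%, interval 31.6 to 86.1). In the pooled list the alpha ring had 57.1% and the lid 55.6%. In replicates 1 and 2 the lid had 55.6% each time, and the alpha ring 42.9% and 28.6%.

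**Figure D1:**
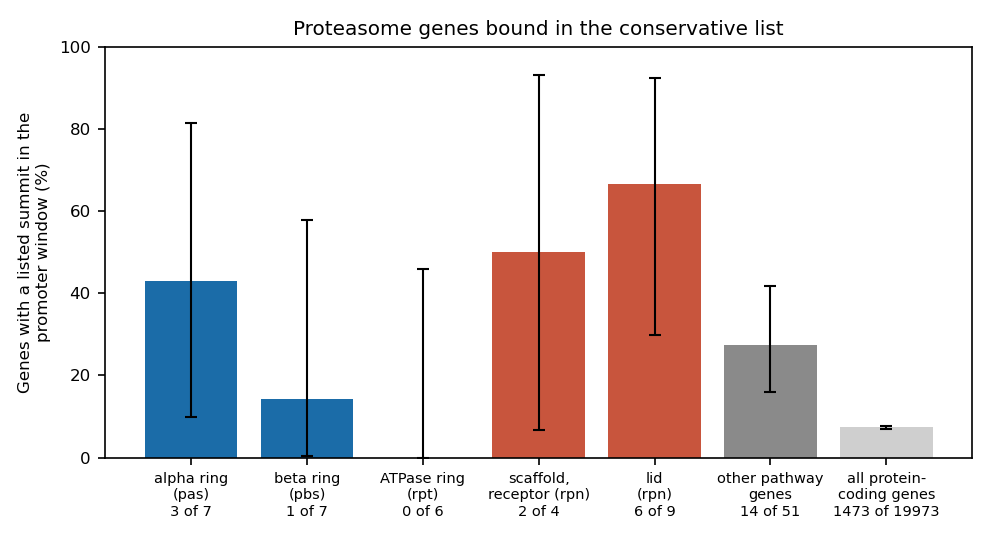
Share of genes with a listed summit in the promoter window (%), conservative list, by ring or layer of the proteasome, for 51 other genes of the pathway and for all protein-coding genes. The 51 genes were chosen with earlier results of these data known. Error bars are exact 95% intervals over genes. The lid stands highest in this list at 66.7%, the ATPase ring has no bound gene of 6, and all protein-coding genes stand at 7.37%. In the pooled list the alpha ring had 57.1% and the lid 55.6%.

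The alpha ring, whose subunits form the gated outer rings of the core, had listed peaks at pas-4, pas-5 and pas-6. The peak of pas-6 (V:5584550-5584635) had a signal of 208 in the conservative list, 146 in replicate 1 and 59.8 in replicate 2, with a global rate of 2.91e-05. It was listed in all 4 lists, and its summit lay 240 bp upstream of the gene. At pas-5 (I:10565881-10566190) the signal was 140 in the conservative list, 77.0 in replicate 1 and 47.99 in replicate 2, with a rate of 0.000349, and it too was listed in all 4. The peak of pas-4 (I:8728455-8728764) had a signal of 101.1 and a rate of 0.00118. It was listed in replicate 1, with a signal of 65.5, and not in replicate 2, where a peak of signal 36.1 had a rate of 0.862. The gene also held a second listed peak in the conservative list, of signal 11.1, with its summit in the coding sequence of the neighbouring gene rpb-3, a subunit of RNA polymerase II.

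Of the other alpha genes, pas-3 came nearest to the threshold. Its peak had a signal of 82.3 and a rate of 0.0269 in the conservative comparison and of 0.005 in the pooled one, where it was listed. In replicate 1 its signal was 36.7 and in replicate 2 it was 40.7, at rates of 0.428 and 0.0274. A signal of 53.3 (rate 0.0609) was the strongest at pas-1, and 31.9 (rate 0.898) at pas-7. The gene pas-2 had a ranked peak in the conservative comparison alone, with a signal of 13.1.

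The beta ring, which holds the proteolytic sites, had 1 bound gene, pbs-7. Its peak (I:8696388-8696504) had a signal of 185 in the conservative list, 125 in replicate 1 and 60.5 in replicate 2, with a rate of 3.74e-05, and was in all 4 lists. Next came pbs-3 and pbs-2, just outside the threshold in the conservative comparison, with signals of 74.0 and 52.3 and rates of 0.0153 and 0.0186. In the pooled comparison their rates were 0.079 and 0.735. Rates in replicates 1 and 2 were 0.0226 and 0.834 at pbs-3, and 0.069 and 0.212 at pbs-2. In the conservative comparison the others were weaker or less steady. Signals were 58.2 at pbs-1 (rate 0.0335), 47.98 at pbs-4 (0.441) and 38.7 at pbs-5 (0.804). No ranked peak lay at pbs-6 in the conservative comparison, and its strongest in the pooled one had a signal of 34.4. Beta genes other than pbs-7 were thus in none of the 4 lists.

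The ATPase genes rpt-1 to rpt-6, whose products form the unfolding ring, were in none of the 4 lists. An interval over 6 genes reaches up to 45.9%, so a share well above that of all genes is not shut out by the count. In the conservative comparison their strongest peaks had signals of 68.8 at rpt-5 (rate 0.116), 68.0 at rpt-1 (0.179) and 61.1 at rpt-4 (0.0361). Signals at rpt-2, rpt-3 and rpt-6 were 46.0, 44.5 and 35.9, with rates of 0.743, 0.755 and 0.649. In replicate 1 the ATPase genes ran from 23.1 at rpt-6 to 45.3 at rpt-1, with no ranked peak at rpt-5, and in replicate 2 from 15.2 at rpt-6 to 32.2 at rpt-5. The order of the ATPase genes thus differed between the replicates, and the peaks were ranked but did not repeat well enough to be listed. At rpt-2, rpt-3 and rpt-6 the strongest peak was also a different one in each replicate. Its summit lay at 48, −75 and −841 bp from the start in replicate 1, and at −832, −651 and −274 bp in replicate 2. The median signal of the ATPase genes in the conservative comparison, 53.6, still lay above the 38.4 of all protein-coding genes with a ranked peak.

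Among the scaffold and receptor genes, both scaffolds were bound and both dedicated ubiquitin receptors were not. The peak of rpn-2 (III:6198711-6199020) had a signal of 133 in the conservative list, 84.2 in replicate 1 and 40.3 in replicate 2, with a rate of 0.000515, and was in all 4 lists. At rpn-1 (IV:6910064-6910373), whose product also receives ubiquitin, the signal was 91.6 with a rate of 0.00299. That peak was in the conservative and pooled lists, and in the single replicates its signals of 62.1 and 30.5 had rates of 0.0993 and 0.0345. The receptor genes rpn-10 and rpn-13 had signals of 30.4 (rate 0.898) and 22.2 (rate 0.619), and neither had a ranked peak in replicate 2.

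The lid, which removes ubiquitin chains, held the 4 strongest peaks of the regulatory particle and the strongest of the complex. At rpn-9 (II:11239122-11239229) the signal was 250 in the conservative list, 161 in replicate 1 and 77.5 in replicate 2. At rpn-11, the deubiquitinase of the lid, the peak (II:4044500-4044623) had a signal of 245, with 149 in replicate 1 and 100.1 in replicate 2. Both had a rate of 1e-05, the lowest value in the files, which many other protein-coding genes shared. The summit of rpn-11 lay 16 bp upstream of the start, nearest of all bound members, and that of rpn-9 lay 234 bp upstream.

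Paralogous lid genes rpn-6.1 and rpn-6.2 were both bound, at positions that lie inside the longest model of each gene. In C. elegans, higher rpn-6.1 expression has been linked to higher proteasome activity. The peak of rpn-6.1 (III:6961284-6961422) had a signal of 217 in the conservative list, 148 in replicate 1 and 73.3 in replicate 2, with a rate of 1.15e-05. Its summit was 407 bp upstream of an internal transcript start and 654 bp downstream of the outermost start, in an intron. The peak of rpn-6.2 (III:9001538-9001847) had 139, 90.0 in replicate 1 and 46.9 in replicate 2, with a rate of 0.000238. Its summit was also in an intron, 812 bp upstream of an internal start and 306 bp downstream of the outermost one. Both genes were in all 4 lists.

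The lid subunit gene rpn-3 (III:8447134-8447220) had a signal of 203 in the conservative list, 114 in replicate 1 and 82.9 in replicate 2, with a rate of 1.71e-05, and was in all 4 lists. The gene rpn-8, which encodes the partner of the deubiquitinase, was the weakest bound member and lay just inside the threshold. Its peak (I:4174965-4175274) had a signal of 81.3 and a rate of 0.00776, and was in the conservative list alone. In replicate 1 its signal was 42.3 and in replicate 2 it was 38.7, at rates of 0.0945 and 0.855. The lid genes that were not bound had signals of 64.3 at rpn-5 (rate 0.0489), 44.4 at rpn-12 (0.311) and 38.6 at rpn-7 (0.603).

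**Figure D2:**
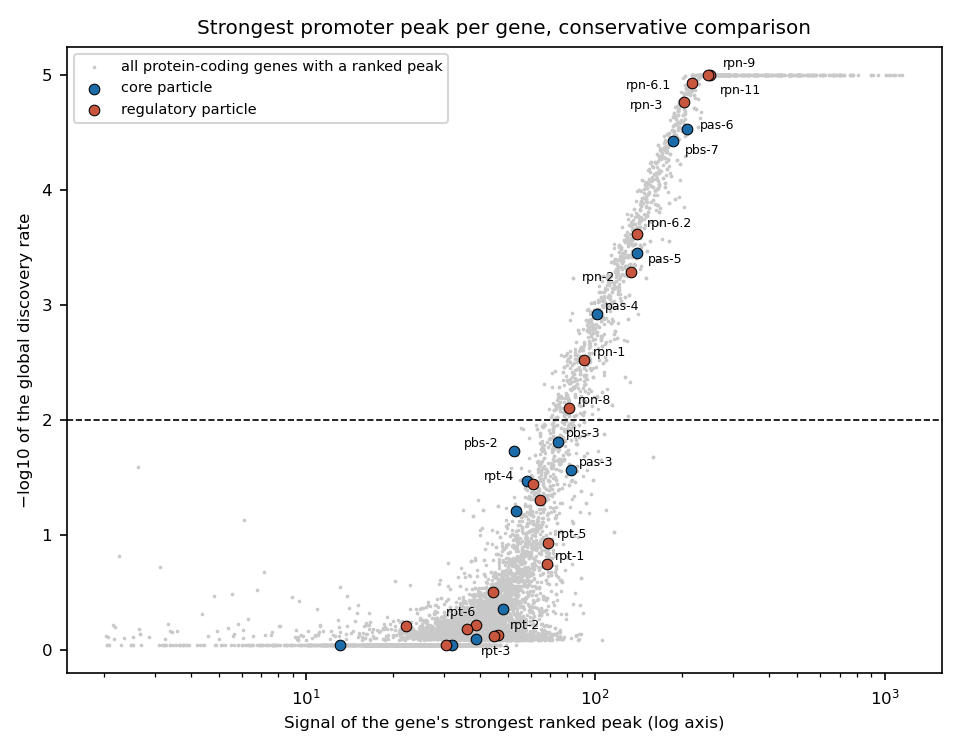
Signal of each gene's strongest ranked promoter peak (log axis) against the −log10 of its global discovery rate in the conservative comparison, for 10400 protein-coding genes (grey), 13 core genes (blue) and 19 regulatory genes (red); the dashed line is the threshold of 0.01. The ATPase genes fall below the line, with signals between 35.9 and 68.8. The lid genes rpn-9 and rpn-11 reach the lowest rate in the files, as do many of the grey genes.

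Members differed in how steadily they were listed. There were 9 in all 4 lists, namely pas-5, pas-6, pbs-7, rpn-2, rpn-3, rpn-6.1, rpn-6.2, rpn-9 and rpn-11, while 911 of all protein-coding genes (4.56%) were in all 4. The gene pas-4 was in 3 lists, rpn-1 in 2, and pas-3 and rpn-8 in 1 each, and 20 members were in none. The pooled list had 12 bound members, with pas-3 in place of rpn-8, beside 7.65% of protein-coding genes. The list of replicate 1 had 10, beside 6.06%, and that of replicate 2 had 9, beside 5.33%. All members listed in replicate 2 were also listed in replicate 1, and pas-4 was the extra member there. The conservative and pooled comparisons both carry the signal of the pooled reads, so they are not independent of each other or of the replicates. A ranked peak was present in all 4 comparisons at 28 of the 33 genes (84.8%), against 28.6% of protein-coding genes.

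**Figure D3:**
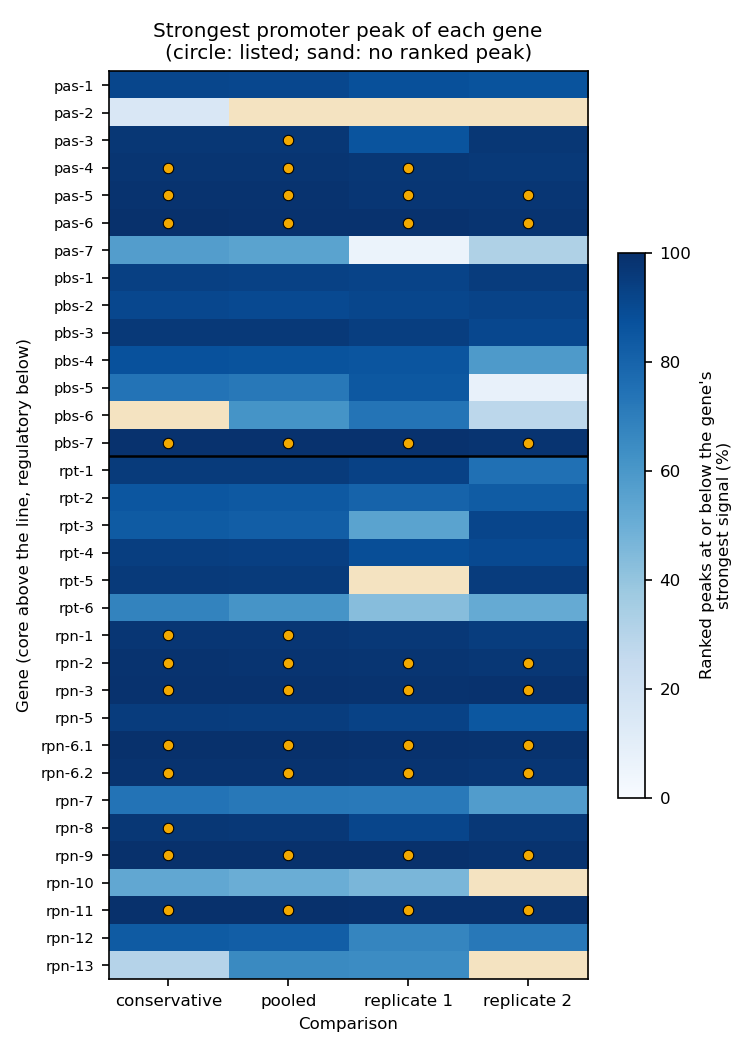
Each of the 33 genes (rows; core above the line, regulatory below) in the 4 comparisons (columns), coloured by the percentage of ranked peaks with a signal at or below that of its strongest peak; circles mark a listed peak and sand a missing ranked peak. Circles fill all 4 columns at 9 genes, and none falls on the ATPase genes rpt-1 to rpt-6.

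The 9 members listed in both replicates (beside 4.58% of protein-coding genes) had a higher signal in replicate 1 than in replicate 2 each time. The log2 ratio of replicate 1 over replicate 2 was lowest at rpn-3 (0.46) and highest at pas-6 (1.28), with a median of 1.01. Over the 914 protein-coding genes listed in both, the median ratio was 0.74 and 905 were higher in replicate 1, so the direction is shared with nearly all genes. The order of members also shifted, since rpn-11 was strongest in replicate 2 and rpn-9 in replicate 1. Summits of the replicates lay a median of 7 bp apart, with the largest gap, 63 bp, at rpn-2. At 9 of 9 genes the replicates' peaks shared at least 1 bp, which was not counted over all protein-coding genes.

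**Figure D4:**
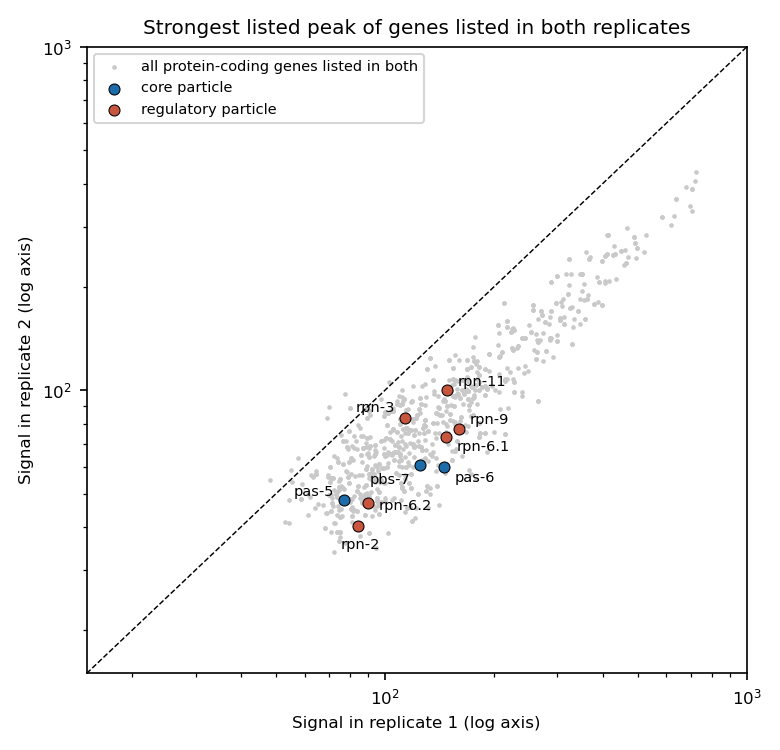
Signal of the strongest listed promoter peak in replicate 1 (x, log axis) and replicate 2 (y, log axis) for 914 protein-coding genes listed in both (grey) and the 9 proteasome genes among them (blue core, red regulatory); the dashed line marks equal signal. All 9 lie below the line, with log2 ratios from 0.46 to 1.28, as do 905 of the 914.

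Peaks of bound members lay in the middle of the range of bound genes. Their median signal in the conservative list was 162, with a range of 81.3 to 250, and that of all 1473 bound protein-coding genes was 149, with a highest value of 1151. Of the 12, 6 lay above the median of bound protein-coding genes. The 4 bound core genes had a median of 162 and the 8 bound regulatory genes one of 171. Members below the threshold also had higher signals than such genes in general, by their medians. Over the 20 members with a ranked but no listed peak, the median signal was 47.0, against 35.6 over all 8927 such protein-coding genes. A rate of at most 0.05 was reached by 18 of the 32 members with a ranked peak and by 1833 of the 10400 protein-coding genes.

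Listed summits lay a median of 237 bp upstream of the member's nearest start, and those of all bound protein-coding genes 260 bp. Peaks of bound members had a median width of 224.5 bp, against 310 bp, a width shared by many peaks in the list. At 3 of the 12 genes, rpn-11, pas-5 and rpn-6.2, no other gene had its start in reach of the peak. The other 9 shared it with another protein-coding start, and the member's start was the nearest protein-coding one each time (5.18% of protein-coding genes are bound when a peak goes to its nearest protein-coding start alone). The peak of rpn-3 was shared with the chaperone gene hsp-110, whose start lay 272 bp from the summit, and that of pas-4 with rpb-3, 154 bp away. The peak of rpn-1 was shared with ribo-1, a subunit of the oligosaccharyltransferase, 464 bp away, and that of rpn-8 with the mitochondrial ribosomal protein gene mrps-6, 346 bp away. The remaining 5 shared theirs with T06D8.9 (rpn-9), F57B9.1 (rpn-6.1), CD4.11 (pas-6), F39H11.1 (pbs-7) and C23G10.7 (rpn-2). A start of a non-coding RNA gene lay nearer to the summit than the member's own at rpn-3, pas-4 and rpn-1. A peak between divergent starts cannot be tied to either gene from these lists.

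**Figure D5:**
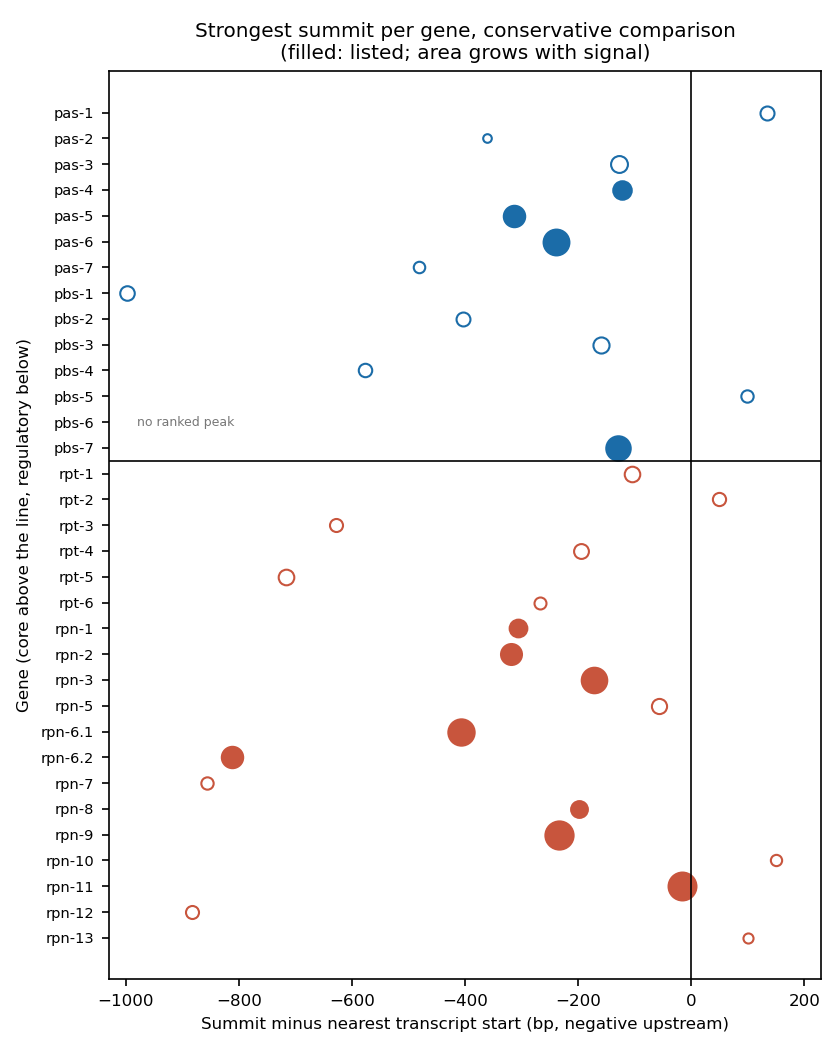
Distance of the strongest summit from the nearest transcript start (bp, negative upstream) for each gene in the conservative comparison; filled circles are listed, open ones are ranked only, and circle area grows with signal. Listed summits all lie upstream, from 812 bp at rpn-6.2 to 16 bp at rpn-11, and rpn-6.1 and rpn-6.2 are measured from internal starts.

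Divergent neighbours were common at proteasome genes in general. A start on the other strand lay within 1000 bp upstream at 21 of 33 members (63.6%), against 18.3% of protein-coding genes. Among bound members it was 10 of 12 (83.3%), among unbound members 11 of 21 (52.4%), and among all bound protein-coding genes 49.4%. The share was 64.3% in the core and 63.2% in the regulatory particle. A same-strand gene ended within 500 bp upstream of 8 of 33 members (24.2%), 2 of them bound, and of 18.1% of protein-coding genes. Whether such neighbours bear on the binding share of the members was not tested.

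Short sequences were searched on both strands within 50 bp of the strongest ranked summit of each gene, where a window that serves 2 genes counts for each. The homeodomain core TAATTA was in 0 of 32 members, against 3.47% of protein-coding genes and 2.1% of bound ones. Its shorter form TAAT was in 13 of 32 members (40.6%), against 52.9% of protein-coding genes. GTCAT and ATCAT are the core forms of SKN-1 sites. GTCAT was in 10 of 32 members (31.2%), against 13.3% of protein-coding genes, and ATCAT in 6 of 32 (18.8%), against 18.2%. Among bound members GTCAT was in 5 of 12 (41.7%), namely pbs-7, rpn-1, rpn-2, rpn-6.1 and rpn-11, against 9.03% of bound protein-coding genes, and ATCAT in 4 of 12 (33.3%), against 9.78%. Unbound members with a ranked peak had GTCAT in 5 of 20 (25%) and ATCAT in 2 of 20 (10%). The E2F-like TTTCGCG was in 3 of 12 bound members and in 13% of bound protein-coding genes. The E-box CACGTG was in 0 of 32 members, against 2.38% of protein-coding genes, and TGATAA, the core of GATA factor sites, in 1 of 32, against 6.88%. CGCGAA and GAGACC were added to the search after the data were seen, as frequent in all listed promoter peaks. They were in 5 and 2 of 12 bound members, against 18.9% and 23.1% of bound protein-coding genes.

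ATTGTC was noticed in these very windows and was added to the search afterwards, so its count is a description only. It was in 8 of 12 bound members (66.7%), in 2 of 20 unbound members with a ranked peak (rpn-10 and rpn-13), in 5.89% of protein-coding genes and in 6.11% of bound ones. The holders were 7 of the 8 bound rpn genes, all but rpn-3, and 1 of the 4 bound core genes, pas-5. It was not in the window of pbs-7, which has a higher signal than rpn-6.2 and, like pas-5, no printed window. Of 11 matches, 10 read in the direction of the gene and 1, at rpn-2, against it. Counted towards the gene, 8 of the 10 and the 1 against it began past the summit. First bases lay from 22 bp before the summit (the first copy at rpn-11) to 44 bp past it (rpn-1). Those of rpn-9, pas-5 and rpn-8 lay 2 bp, 12 bp and 15 bp past it. At rpn-11 and rpn-6.1 it was present 2 times each, and in each of these genes 1 copy reads on as ATTGTCAT, as the printed windows show. That longer run overlaps both shorter ones and was also added after the data were seen. It was in 3 of 12 bound members (rpn-2, rpn-6.1 and rpn-11), in 0 of 20 unbound ones, in 0.462% of protein-coding genes and in 0.611% of bound ones.

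The promoter itself was also searched, from 250 bp upstream to 50 bp downstream of the outermost start. This window leaves out several bound summits. Those of pas-5, rpn-1 and rpn-2 lay 314, 306 and 318 bp upstream of the outermost start. Those of rpn-6.1 and rpn-6.2 lay 654 and 306 bp downstream of it. The ATTGTC copies near these summits also fell outside the window. There ATTGTC was in 4 of 12 bound members and in 7 of 21 unbound members, 33.3% of each, against 16.9% of protein-coding genes. ATTGTCAT was in 5 of 33 members (15.2%), against 1.93% of protein-coding genes. These were pas-2, pbs-1, rpt-2, rpn-12 and rpn-11, and rpn-11 alone of them was bound. GTCAT was in 19 of 33 members (57.6%), against 39.5%, ATCAT in 19 of 33 (57.6%), against 55.6%, and TAATTA in 8 of 33 (24.2%), against 15.5%. The equal shares of ATTGTC at bound and unbound members thus hold for a window that misses several of the bound summits. A match of letters is not evidence of a site in either window. The median GC content of the summit windows was 44.1% at bound and at unbound members, 41.6% over protein-coding genes and 45.5% over bound ones.

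Of 51 other genes of ubiquitin conjugation and delivery to the proteasome, 14 were bound (27.5%, interval 15.9 to 41.7), against the 7.37% of all protein-coding genes. Among genes with a ranked peak the share was 35% of 40, against 14.2%. These 51 genes were chosen with earlier results of these data known, so their share is a description only. Ubiquitin itself was bound at ubq-1, the polyubiquitin gene (signal 379), and ubq-2, which fuses ubiquitin to a ribosomal protein (133). The summit at ubq-1 lay at −979 bp from the start, near the edge of the window. The gene ubl-1, grouped with them, was in the pooled and replicate 2 lists and not in the conservative one. The activating enzyme gene uba-1 had 170. The highest signal among these 51 genes, 768, was at cdc-48.1, which encodes the AAA ATPase that extracts ubiquitinated proteins. Its cofactor genes ufd-2 (138), ufd-3 (81.4) and ubxn-2 (81.5) were also bound, making 4 of 14 in that group. The conjugating enzyme genes ubc-6 (387), ubc-7 (225) and ubc-18 (111) made 3 of 8, and the ligase genes cul-4 (202) and chn-1 (88.5) 2 of 10.

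Among factors that work on the proteasome itself, ecps-1, a homologue of the yeast proteasome adaptor Ecm29, had a signal of 249, with 171 in replicate 1 and 90.6 in replicate 2. The gene aip-1, an AN1 zinc finger protein linked to the proteasome, had 103, and the other 4 such genes were not bound. The proteasome-bound deubiquitinase genes ubh-4 and usp-14 were not in the conservative list, but both were in the pooled list and that of replicate 1. The shuttle genes rad-23 and ubql-1 and all 5 genes of the SKN-1A pathway (skn-1, png-1, ddi-1, sel-1 and sel-11) were in none of the 4 lists. Beside the 7.37% of all protein-coding genes bound in the conservative list, an absence in groups this small says little. In the list of replicate 1, 12 of the 51 genes were bound (23.5%), beside 6.06% of protein-coding genes. Replicate 2 had 10 (19.6%), beside 5.33%, and the pooled list 17 (33.3%), beside 7.65%. The bound genes ufd-2 and ubxn-2 were listed in neither replicate. Of the other bound genes, uba-1, aip-1 and chn-1 were listed in replicate 1 and not in replicate 2. The reverse held for ufd-3 and ubc-18. At ubq-2, cdc-48.1, ubc-6, ubc-18, chn-1, ecps-1 and aip-1 the peak also lay in the window of another gene. Such a peak cannot be tied to either gene from these lists.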

How the data were processed

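ChIP-seq was made on 2 biological replicates, and 4 ranked and 4 thresholded peak lists were used. Per the deposited notes and the labels, peaks are on assembly ce11 and were ranked by the irreproducible discovery rate. Peaks were called per replicate and on the reads of both together, per the deposited notes. Not given in the sources used here are the aligner and the peak caller. The signal per peak is the authors' deposited value. The authors' score, which stops at 1000 and tracks the global rate, served only to match rows between lists. The −log10 of the global rate, as deposited, was turned back into the rate. Peaks outside the chromosome lengths of WBcel235 were looked for and none was found.

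Summits were assigned to Ensembl release 115 transcript starts with Python 3.11.15, pandas 2.3.3, NumPy 2.4.6 and SciPy 1.17.1, and the assignment was tested on simulated positions. Figures used Matplotlib 3.10.9. The members, the list of 51 genes and the sequences were chosen with earlier results of these data known. Every member is named, with values from its strongest peak, and of the 51 genes those bound. Alternatives were the other lists, a rate of 0.001, other windows, assignment to the nearest start and peak overlap.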

Additional observations from a re-analysis of the deposited data

How the results depend on the processing

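Under 9 alternatives the number of bound proteasome genes ran from 9 to 13, against 12. Over all protein-coding genes the share ran from 4.54% to 9.06%, against 7.37%. A rate of at most 0.001 left 9 members, without pas-4, rpn-1 and rpn-8 (5.46% of protein-coding genes), and assignment to the nearest start of any biotype left 9, without pas-4, rpn-1 and rpn-3 (4.54%). A promoter of 500 bp upstream and 100 bp downstream gave 11, without rpn-6.2 (5.86%), and one of 2000 bp upstream gave 13, with pbs-1 (9.06%). No ATPase gene was bound under any of the alternatives. Leaving out a replicate gave counts of 9 and 10, and a median signal of the bound members from 60.5 to 119, against 162. The signal of a single library is on its own scale. The median distance of the summit from the start, −237 bp, ran from −241 to −239 bp without a replicate. It was −240 bp at a rate of 0.001, −234 bp with the narrow promoter, −240 bp with the wide one, −240 bp with the nearest start of any biotype and −216.5 bp with peak overlap. The SD between the replicates' medians was 1.41 bp. With a larger overlap required, 50% of each peak, 8 of the 9 members remained shared by the replicates, rpn-6.1 being the exception. Its replicate 1 peak, 116 bp wide, lay inside its replicate 2 peak, 270 bp wide, with summits 7 bp apart. Overlap was not counted over all protein-coding genes. The other 47 values kept within the limits, which are 1.5 times for a count. No paired analysis was possible because the samples form 1 group and no test was made. Limits are the unknown depth, the control shared by both replicates, and counts of at most 19 genes per particle.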
